A study of Mus musculus with 8 samples.

Results

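The TOX genes Tox, Tox2, Tox3 and Tox4 encode the 4 members of a small family of high mobility group (HMG) box proteins. They were taken as the rows with these 4 symbols among the 55291 genes of the deposited table, and were chosen by name with measured counts of ATF4OE and WT libraries, the contrast described here, in view. Their differences between the genotypes are therefore given as a description, without p-values. RNA-seq was done on polyadenylated RNA of CD8+ T cells, the lymphocytes that kill infected and tumour cells, enriched from spleens of naïve mice with a magnetic isolation kit and no cell sort. Of the 8 libraries, 4 carry the genotype label ATF4 Tg/Tg and a title naming ATF4 overexpression (here ATF4OE), and 4 are labelled WT. ATF4 is the transcription factor that acts at the end of the integrated stress response. The design text names the animals as ATF4Tg/Tg or E8IcreATF4Tg/Tg, so that on this reading the comparison animals would carry the transgene without the Cre. E8I Cre is a driver active in CD8 T cells, and WT stands here for the sample label, whatever alleles those mice had. Strain, age and sex are not used here, and no label ties each sample to its own mouse. The p-values therefore measure only spread among libraries, part of which may be technical.

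The HMG box is a fold that binds and bends DNA, and that of the TOX family is thought to have little preference for sequence. Tox is induced by calcineurin and NFAT signalling after T cell receptor stimulation, is needed for development of CD4 lineage thymocytes, and maintains the exhausted state of CD8 T cells under chronic antigen. Tox2 acts beside Tox in exhausted cells and in T follicular helper cells. Tox3 is known mainly from neurons and epithelium, where it works with CREB and CITED1 in calcium-dependent transcription. Tox4 is broadly expressed and binds the PP1 phosphatase through PNUTS (Ppp1r10) and Wdr82.

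On GRCm38 with GENCODE M21, Tox (ENSMUSG00000041272.11) lies on the minus strand of chromosome 4 from 6686353 to 6991557 and spans 305.2 kb. Tox2 (ENSMUSG00000074607.11) lies on the plus strand of chromosome 2 from 163203125 to 163324170. Tox3 (ENSMUSG00000043668.13) lies on the minus strand of chromosome 8 from 90247040 to 90348343, and shares no exon base with another annotated gene. Tox4 (ENSMUSG00000016831.12) is a compact gene of 17.3 kb on the plus strand of chromosome 14 from 52279146 to 52296401. Rab2b and Mettl3 overlap it on the opposite strand, and 16.23% of its exon bases are shared with other genes. For Tox that share is 3.42%, with the antisense gene Gm11802 on the other strand, and for Tox2 it is 0%.

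The coding sequences of the family members are related but distinct. Pairwise identity ran from 49.9% for Tox2 with Tox4 to 58.1% for Tox with Tox2, and 408 of 1320 ungapped alignment columns (30.9%) were identical in all 4. Identity was concentrated in the middle of the alignment, at 63.3% to 70.0% in windows of 90 bases from position 915 to 1065. The most conserved in-frame window of 90 bases had 64 bases identical in all 4 genes (71.1%). It is shown because it is the stretch in which reads could most easily be confused between members, with capitals marking bases identical in all 4, from GENCODE M21 coding sequences on GRCm38 (bases 751 to 840 of Tox-201, 832 to 921 of Tox2-201, 730 to 819 of Tox3-201 and 637 to 726 of Tox4-201).
Tox: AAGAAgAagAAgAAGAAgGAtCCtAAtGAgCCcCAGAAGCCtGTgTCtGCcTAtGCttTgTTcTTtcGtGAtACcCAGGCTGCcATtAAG
Tox2: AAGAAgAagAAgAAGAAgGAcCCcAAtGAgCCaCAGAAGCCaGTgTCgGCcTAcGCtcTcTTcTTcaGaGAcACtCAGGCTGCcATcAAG
Tox3: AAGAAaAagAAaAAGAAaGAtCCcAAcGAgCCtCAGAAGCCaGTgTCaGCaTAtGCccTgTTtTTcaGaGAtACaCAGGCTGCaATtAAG
Tox4: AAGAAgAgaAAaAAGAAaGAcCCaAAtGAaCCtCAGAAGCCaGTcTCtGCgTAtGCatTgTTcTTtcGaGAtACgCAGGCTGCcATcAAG
Even here the lower-case differences are spread through the window. No 31-base word was shared between any of the 4 genes, over 7569 words of Tox, 3315 of Tox2, 3382 of Tox3 and 7002 of Tox4. Of the Tox3 words, 0% occurred in any other gene, against 0.24% for Tox2, 3.91% for Tox and 27.41% for Tox4. The words of Tox4 found elsewhere were mainly in Mettl3 and Gm5828, so part of the Tox4 estimate rests on how reads were divided with these genes.

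**Figure D1:**
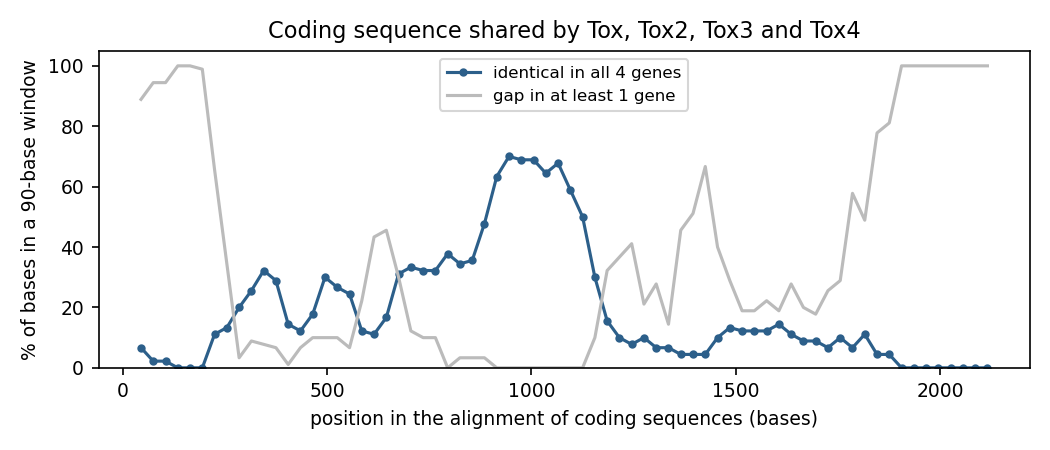
Percent of bases identical in all 4 TOX genes in windows of 90 bases (blue) and percent of columns with a gap in at least 1 gene (grey), against position in the alignment of coding sequences in bases. Identity peaks in the middle of the alignment and is low at both ends, where gaps are frequent.

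Levels are given in CPM, counts scaled to a common normalised library size, with log2 fold changes of ATF4OE over WT and their standard errors (SE). Each SE was worked back from the edgeR test, as the size of the log2 fold change over the square root of its F statistic. It is therefore approximate, most of all at low counts. The libraries fall in pairs by name: replicates 1 and 2 of each genotype have library names numbered 1 and 2, and replicates 3 and 4 have names numbered 4 and 5. These are called set 1 and set 2 here, and the labels do not say what separates them. Atf4 itself, the labelled transgene, was at 285, 308, 165 and 165 CPM in WT replicates 1 to 4 and at 445, 427, 228 and 212 CPM in ATF4OE replicates 1 to 4. Within each set both ATF4OE libraries were above both WT libraries, yet the groups overlapped across sets. The log2 fold change was 0.51 with an SE of 0.31 (edgeR adjusted p = 0.367), and with the replicate number as a block it was 0.48 (edgeR adjusted p = 0.000219). The labels do not pair replicate numbers across genotypes, so results with this block, here and below, come from an alternative fit only. Depth was 93478686 to 125974143 estimated counts per library, and 3 counts correspond to 0.024 to 0.034 CPM. WT replicates 1 and 4 and ATF4OE replicates 1 and 2 lacked low counts, with 401 to 562 genes at more than 2 and up to 5 counts, against 952 to 1158 in the other 4. Tox3 was at 0 in the WT libraries of both kinds, and Tox2 was at 0 in one WT library that lacks low counts.

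Tox3 was the only member with no count in any WT library. It had 0 counts in each of the 4 WT libraries and 343, 131, 191 and 150 counts in ATF4OE replicates 1 to 4. In CPM these are 0 in all WT libraries against 2.75, 1.24, 1.56 and 1.26, a mean of 1.70 ± 0.714 (SD, n = 4). Every ATF4OE library was above every WT library, and replicate 1 was the highest. In 22.0% of tested genes the 2 groups did not overlap, in either direction. Set against a floor of 3 counts over the WT group, the 815 ATF4OE counts were at least 248-fold higher, and 201-fold by the lower limit of a 95% exact (Clopper-Pearson) interval. Both bounds cover counting error only.

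Tox3 passed the filter on low counts only through the ATF4OE libraries. It was the only one of the 4 members called in either direction at an adjusted p below 0.05, where 14.1% of the 16630 tested genes were called, 9.16% higher and 4.89% lower. Since the members were proposed on this contrast, the call of Tox3 is no test of it, and nothing is read from that count. Among tested genes, 51 had no count in any WT library, and Tox3 was one of 4 with at least 1 CPM in every ATF4OE library among those with a non-provisional symbol, beside Aldh1l2, Cdk15 and Cth. In bulk RNA, a few cells with much Tox3 cannot be told apart from a little Tox3 in many cells.

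Tox2 was low in every library. Its levels were 0.339, 0.159, 0.350 and 0 CPM in WT replicates 1 to 4 (30, 16, 42 and 0 counts) and 1.07, 0.368, 1.14 and 1.00 CPM in ATF4OE replicates 1 to 4 (133, 39, 140 and 120 counts). The groups did not overlap; ATF4OE replicate 2, at 0.368 CPM, lay just above WT replicate 3, at 0.350 CPM. The means were 0.212 ± 0.166 and 0.895 ± 0.356 CPM (SD, n = 4 each), a ratio of 4.22, and the log2 fold change was 2.08 with an SE of 0.98. Non-overlap of the 2 groups in either direction occurred in 22.0% of tested genes. Tox2 was not called, and nothing is read from that either, since the members were proposed on this contrast.

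Tox, the exhaustion factor, overlapped between the genotypes. Its levels were 42.5, 48.5, 56.8 and 66.9 CPM in WT replicates 1 to 4, and 51.8, 64.2, 50.5 and 64.7 CPM in ATF4OE replicates 1 to 4. The WT libraries covered the whole ATF4OE range. The means were 53.7 ± 10.6 and 57.8 ± 7.71 CPM (SD, n = 4 each), with a log2 fold change of 0.11 and an SE of 0.15, a difference smaller than the spread between libraries.

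Tox4, the most abundant member, had 102, 103, 109 and 119 CPM in WT replicates 1 to 4 and 108, 115, 112 and 121 CPM in ATF4OE replicates 1 to 4. The groups overlapped. The means were 108 ± 7.99 and 114 ± 5.26 CPM (SD, n = 4 each), and the log2 fold change was 0.08 with an SE of 0.07. Tox and Tox4 together made up nearly all of the summed CPM of the 4 genes: Tox4 took 63.6% to 70.4% and Tox 29.4% to 36.0% in each library. Tox3 reached 0.668% to 1.68% of that sum in ATF4OE, and Tox2 at most 0.692%. CPM is not corrected for gene length. Per length of the merged exons, Tox3 took 1.41% to 3.48% of the family in ATF4OE, and Tox2 at most 1.43%.

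**Figure D2:**
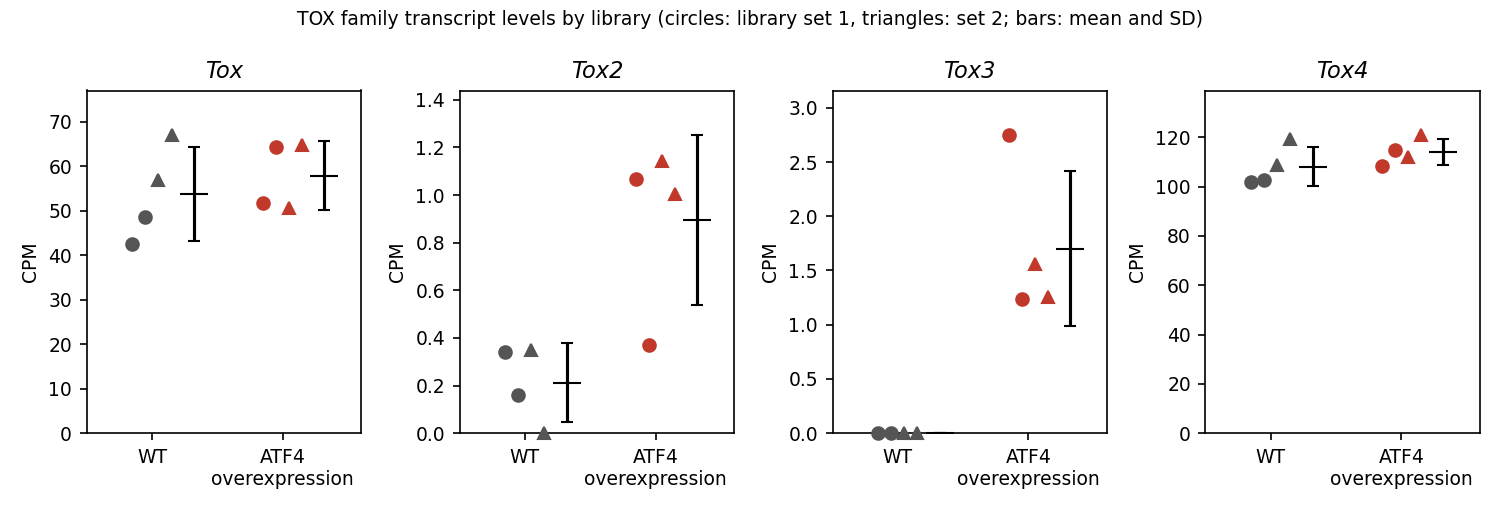
Transcript level in CPM of each TOX gene in the 4 WT (grey) and 4 ATF4OE (red) libraries, one point per library, with circles for replicates 1 and 2, triangles for replicates 3 and 4, and bars for mean and SD. Tox3 is at 0 in all 4 WT libraries and at 1.24 to 2.75 in ATF4OE, while the groups overlap for Tox and Tox4.

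Levels of different genes were compared per length of the merged exons, scaled to a common sum in each library (as TPM is). On this scale the order in ATF4OE was Tox4 (53.3 ± 1.58), Tox (24.6 ± 2.76), Tox3 (1.66 ± 0.740) and Tox2 (0.859 ± 0.350; SD, n = 4). Each neighbouring pair in that order was separated in its range over libraries: Tox3 ran from 1.17 to 2.74 and Tox2 from 0.343 to 1.10. With the length of the longest transcript in place of the merged exons, Tox3 (0.907 to 2.11) and Tox2 (0.307 to 0.976) overlapped. In WT the order was Tox4 (43.3 ± 3.39), Tox (19.6 ± 3.91), Tox2 (0.175 ± 0.140) and Tox3, at 0 counts. Tox4, which overlapped between the genotypes in CPM, did not overlap here (39.8 to 47.4 in WT and 52.2 to 55.6 in ATF4OE). The median gene was 0.20 higher in ATF4OE on the log2 of this scale, which has no TMM scaling; relative to that median, the log2 ratio of group means was 0.13 for Tox, 0.10 for Tox4 and 2.09 for Tox2.

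In an edgeR model with genotype and set, 23.5% of tested genes differed between the sets, and 0 of the 4 TOX genes were called, a count too small to set the family apart from that share. The set 2 minus set 1 log2 difference was 0.22 with an SE of 0.12 for Tox (edgeR adjusted p = 0.251), 0.11 with an SE of 0.06 for Tox4 (adjusted p = 0.195), 0.06 with an SE of 0.94 for Tox2 (adjusted p = 0.974) and -0.48 with an SE of 0.60 for Tox3 (adjusted p = 0.625). Without a filter on low counts Tox passed, at an edgeR adjusted p of 0.0172, so this call for Tox depends on the filter.

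For Tox the genotype difference pointed in opposite directions in the sets. Within set 1 the means were 45.5 CPM in WT and 58.0 CPM in ATF4OE, a log2 fold change of 0.38 with an SE of 0.13. Within set 2 they were 61.9 and 57.6 CPM, a log2 fold change of -0.10 with an SE of 0.14. The interaction, tested by edgeR, was -0.45 with an SE of 0.21 (adjusted p = 0.408), and 0.998% of tested genes passed this test. Without a filter on low counts it passed, at an adjusted p of 0.0296. For Tox4 (-0.09, adjusted p = 0.789) and Tox2 (1.08, adjusted p = 0.879) the edgeR interaction was not past the threshold. It could not be estimated for Tox3, whose WT libraries were all at 0. Within each set Tox3 was again at 0 in WT and at least 130-fold (set 1) or 113-fold (set 2) higher in ATF4OE, against the floor of 3 counts over the WT libraries of that set.

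**Figure D3:**
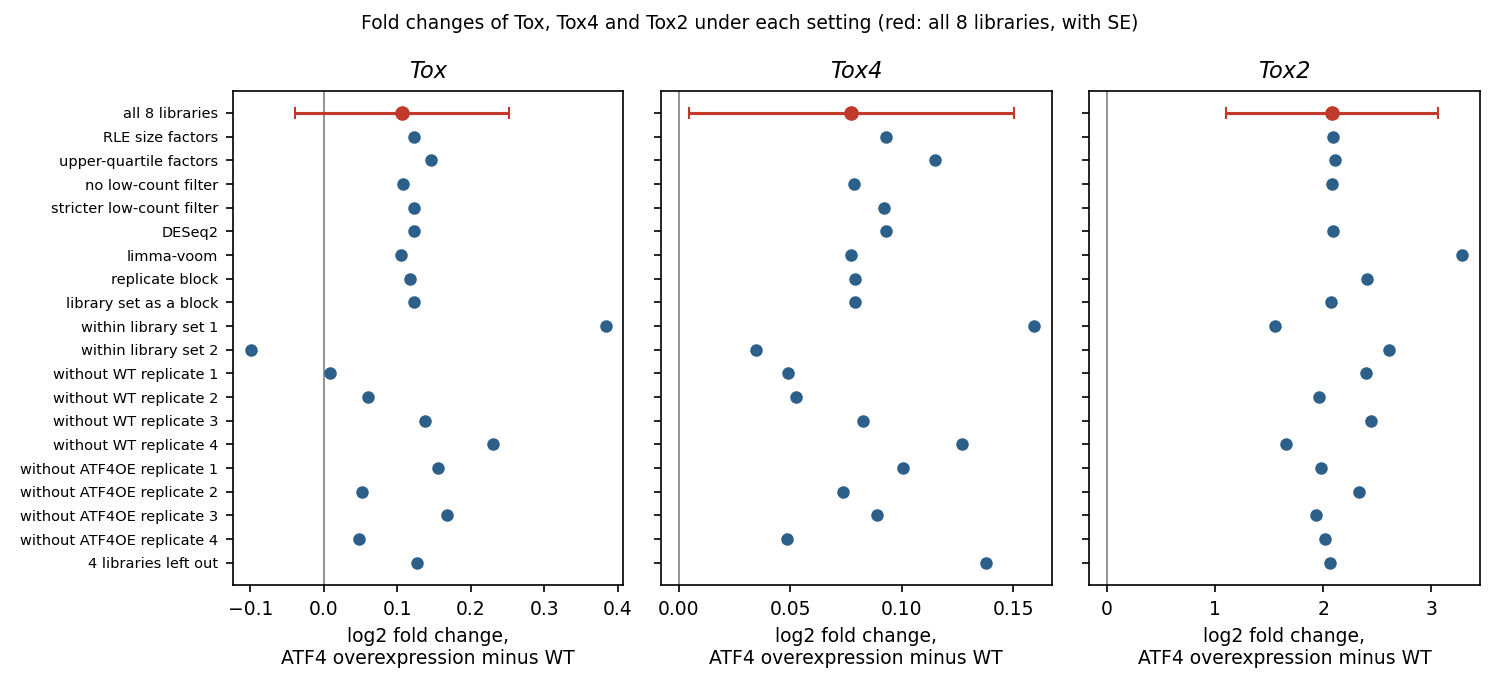
Log2 fold change of Tox, Tox4 and Tox2 (ATF4OE minus WT) under each alternative setting (blue) and in the fit of all 8 libraries (red, with SE). Tox is below 0 only within library set 2 (-0.10), Tox4 stays between 0.03 and 0.16, and Tox2 has no value under the stricter filter.

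The promoters of Tox2, Tox3 and Tox4 were read from RefSeq (GRCm38.p6), which gives 250 bases before to 50 after each start; 3 of the 4 members matched. The Tox3 promoter stood near the top of all 32851 promoters: its 300 bases held 85.3% G and C and 52 CpG, at or above the values of 99.9% and 99.5% of promoters. The median promoter held 52.7% G and C and 7 CpG. The Tox4 promoter held 65.7% and 27 CpG, and the 5 Tox2 promoters 53.3% to 77.7%. The 250 bases before the start are printed for Tox3, with no count in WT, and for Tox4, abundant in both genotypes, with each CpG in capitals (Tox3, minus strand, chr8:90348253-90348502; Tox4, plus strand, chr14:52278896-52279145).
Tox3: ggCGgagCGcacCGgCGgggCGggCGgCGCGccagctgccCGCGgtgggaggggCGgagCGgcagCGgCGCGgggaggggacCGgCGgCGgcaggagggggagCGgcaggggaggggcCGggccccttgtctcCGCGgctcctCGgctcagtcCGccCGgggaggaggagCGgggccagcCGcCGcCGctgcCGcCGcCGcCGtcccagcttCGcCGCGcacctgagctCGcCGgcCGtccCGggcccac
Tox4: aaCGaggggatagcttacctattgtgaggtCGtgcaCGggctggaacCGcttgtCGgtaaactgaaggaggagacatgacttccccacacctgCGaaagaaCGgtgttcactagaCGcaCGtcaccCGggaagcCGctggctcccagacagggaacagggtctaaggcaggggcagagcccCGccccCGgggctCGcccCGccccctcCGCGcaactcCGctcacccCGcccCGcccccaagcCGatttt
The Tox3 stretch holds 40 CpG and the Tox4 stretch 21. The element TGATGNAA, to which ATF4 binds with C/EBP proteins, and the CREB element TGACGTCA were searched on both strands; they differ from each other at fixed letters, so 1 match cannot serve for both. They occur in 3.97% and 1.79% of all promoters of this length. Neither was found in the 7 promoters of the 3 genes, which says only that these letters are not in these windows.

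Genes around each locus were listed within 1000 kb. Over all tested genes 9.16% were called higher and 4.89% lower. Around Tox3, 8 neighbours were tested and 0 were called in either direction. The nearest tested neighbour, the chromatin remodeller Chd9 at 480.0 kb, had a log2 fold change of -0.21 (edgeR adjusted p = 0.053), and Fto, an RNA demethylase, had 0.21 (adjusted p = 0.062). With the replicate block both were called (edgeR adjusted p = 0.00821 and 0.0198). That fit called 2279 genes higher and 2237 lower over all tested genes, against 1524 and 813 in the main fit. Around Tox2, 5 of 18 tested neighbours were higher and 0 lower. They were Mybl2, a cell cycle regulator (log2 fold change 1.78), Serinc3 (0.78), Pkig, a protein kinase A inhibitor (2.28), Hnf4a, a liver and gut transcription factor (5.42), and the potassium channel gene Kcns1, with 0 counts in WT and 209 in ATF4OE. The call of Hnf4a was lost without any one of WT replicates 1, 2 and 4 and ATF4OE replicates 3 and 4 (edgeR adjusted p up to 0.121). Around Tox 0 of 4 were called. Around Tox4 2 of 73 tested entries were higher and 1 lower, where the symbol Gm6740, not called, is entered for each of its annotated loci.

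The genes whose log2 CPM over the 8 libraries followed each member most closely were named by Pearson r, as a description and with no p, since the genotype difference is shared by all points. For Tox3 they were Slc1a5, the ASCT2 glutamine carrier (r = 0.999), Cdk15 (0.998), Aldh1l2, a mitochondrial folate enzyme (0.998), Nt5e, which encodes CD73 (0.996), and Cth, the transsulfuration enzyme cystathionine gamma-lyase (0.996). Cdk15, Aldh1l2 and Cth had 0 counts in all WT libraries, as Tox3 did. Slc1a5 went from a mean of 256 CPM in WT to 683 CPM in ATF4OE, and Nt5e from 63.9 to 127 CPM. Tox2 was followed most closely by Fmnl3 (0.976), a formin of the actin cytoskeleton, then Fbxl18, Mapk9, Tspan2 and Ly6g5b (0.948 to 0.962). Among the genes closest to Tox4 were Treml2 (0.951), Ube2g2 (0.948), Gdf11 (0.946) and Cwc25 (0.944). For Tox these were Got2-ps1, Dnajc14, Gak, Lsm1 and Ube2g2 (0.940 to 0.963). Among the members themselves, Tox and Tox4 varied together (r = 0.907), Tox2 and Tox3 had r = 0.698, and Tox and Tox2 had r = -0.311.

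Genes that feed into or act with the family were counted from lists chosen with earlier results of these data known, so the counts are not independent evidence of direction. The median log2 fold change over all tested genes was -0.02, and 9.16% of them were called higher and 4.89% lower. Of 15 inputs to Tox (calcineurin subunits, NFAT, NR4A and early response factors), 1 rose and 1 fell, with a median of -0.03. Irf4, a factor induced by receptor signalling, rose by a log2 of 1.44 (edgeR adjusted p = 0.0335), from 6.09 to 10.5 CPM in WT to 12.0 to 37.8 CPM in ATF4OE. The calcineurin subunit Ppp3cc fell by 0.27 (adjusted p = 0.0326). Nfatc1 (0.12), Nfatc2 (0.05) and Nr4a1 (0.83, adjusted p = 0.526) were not called. With the replicate block, 3 of these inputs were higher and 4 lower, and Nr4a1 was called (edgeR adjusted p = 0.000697). Over all tested genes the block fit called 2279 higher and 2237 lower, against 1524 and 813 in the main fit. The calls of Irf4 and Ppp3cc depended on which libraries were kept: Irf4 was lost without any one of WT replicates 2, 3 and 4 and ATF4OE replicates 1 and 2 (edgeR adjusted p up to 0.0981), and Ppp3cc without any one of WT replicates 1, 2 and 4 and ATF4OE replicates 2, 3 and 4 (up to 0.098).

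Of 16 exhaustion genes linked to TOX, 6 rose and 0 fell, with a median of 0.86. The shares over all tested genes were 9.16% higher and 4.89% lower. Ikzf2, which encodes Helios, ran from 19.5 to 36.1 CPM in WT and from 80.7 to 93.5 CPM in ATF4OE, a log2 fold change of 1.61 with an SE of 0.17 (edgeR adjusted p = 0.000271). The receptor genes Tigit (1.53), Lag3 (1.57) and Cd244a (2.45) and the ectoenzyme genes Cd38 (1.13) and Entpd1 (1.06) rose too. Pdcd1, which encodes PD-1, had 0.328 to 2.11 CPM in WT and 2.71 to 4.34 CPM in ATF4OE and was not called (log2 1.59, edgeR adjusted p = 0.0567). Tcf7, the factor of naive and stem-like cells, had a log2 fold change of -0.21 (adjusted p = 0.117), and Eomes of -0.03 (adjusted p = 0.918). With the replicate block 7 were higher and 2 lower: Pdcd1 (edgeR adjusted p = 0.0059) and Tcf7 (0.00734) were called and Cd244a was not (0.0927). The shares above are those of the main fit (1524 genes higher and 813 lower), while the block fit called 2279 higher and 2237 lower. Lag3 was lost without WT replicate 3, ATF4OE replicate 1 or ATF4OE replicate 4 (edgeR adjusted p up to 0.0693), Pdcd1 passed without WT replicate 4 (0.0258), and Tcf7 without ATF4OE replicate 2 (0.0347). Without the 4 libraries that lack low counts, 2 were higher and 0 lower.

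Beside 9.16% higher and 4.89% lower over all tested genes, 6 of 25 other HMG-box genes rose and 0 fell, with a median of 0.19. They were Sox13, a gamma-delta T cell factor (2.70), Sox4 (1.78), Sox12 (1.31), the chromatin proteins Hmgb2 (0.99) and Hmgb3 (2.02), and the replication factor Wdhd1 (0.36). Tcf7 and Lef1, the HMG-box factors of naive T cells, had -0.21 and -0.27 and were not called. With the replicate block 11 were higher and 4 lower, and Lef1 was called (edgeR adjusted p = 0.00224), as it was without ATF4OE replicate 2 (0.0396). The block fit called 2279 genes higher and 2237 lower over all tested genes, against 1524 and 813 in the main fit. Wdhd1, at an adjusted p of 0.0489, was lost in 7 of 8 fits that left out 1 library, all but that without ATF4OE replicate 2 (edgeR adjusted p up to 0.145), and Sox12 without ATF4OE replicate 4 (0.0551). Of 12 lymphoid lineage factors, 5 rose and 0 fell, with a median of 0.78. Zbtb7b, which encodes the CD4 lineage factor ThPOK, ran from 3.38 to 6.80 CPM in WT and from 17.7 to 25.4 CPM in ATF4OE (log2 2.13, edgeR adjusted p = 0.000306), and the groups did not overlap. Zbtb16, which encodes PLZF (2.59), Bcl6 (0.43) and Id2 (0.79) were among the others that rose. With the block 7 were higher and 1 lower. Bcl6 (edgeR adjusted p up to 0.0801) and Id2 (up to 0.113) were each lost without any one of WT replicates 1, 3 and 4 and ATF4OE replicates 1, 2 and 4.

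Genes for partner proteins of the family were mostly not called, as was true of tested genes at large. Over all tested genes 9.16% were called higher and 4.89% lower, and these short lists cannot be set apart from those shares. Of 10 genes of the HBO1 acetyltransferase complex, which Tox binds, 0 rose and 1 fell: Jade2, by 0.39 (edgeR adjusted p = 0.0186), while the catalytic subunit gene Kat7 had -0.02. With the replicate block 4 were lower, in a fit that called 2237 of all tested genes lower, against 813 without the block. The call of Jade2 was lost without any one of WT replicates 1, 2 and 3 and ATF4OE replicates 3 and 4 (edgeR adjusted p up to 0.0658). Of 5 genes of the Tox4 phosphatase complex, 0 were called (median -0.09). Of 9 tested genes for CREB and its coactivators, the partners of Tox3, 0 were called (median 0.01). The listed coactivator gene Cited1 was not tested: it had no count in WT, and 18 counts in ATF4OE replicate 1, 1 in replicate 4 and 0 in the other two.

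**Figure D4:**
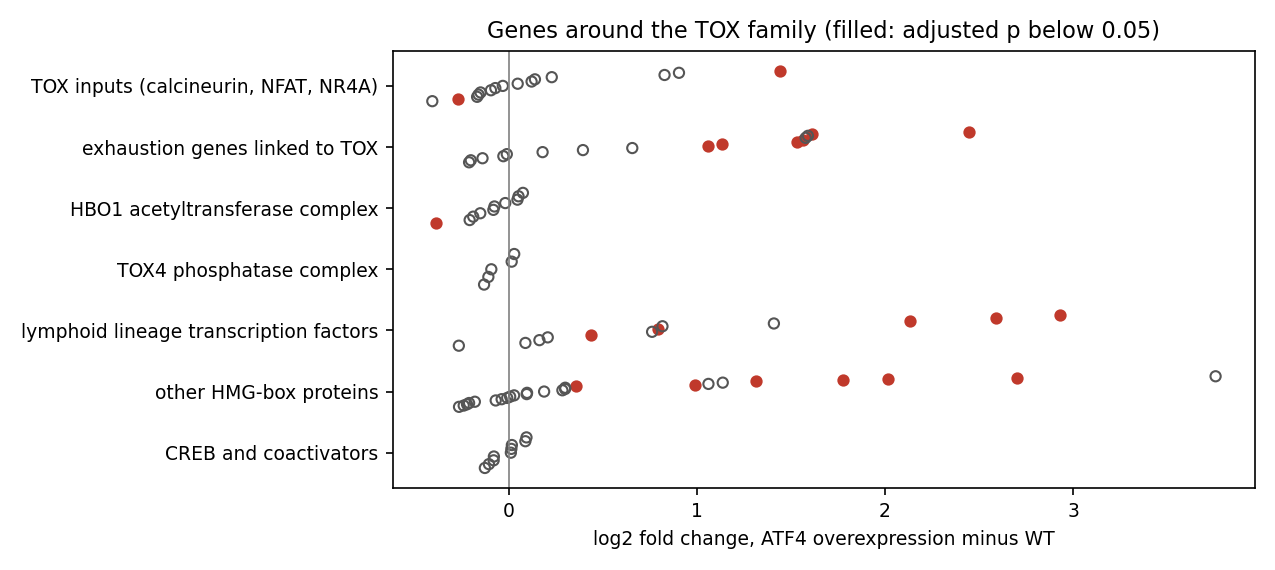
Log2 fold change (ATF4OE minus WT) of each tested gene in the 7 lists of genes around the TOX family, with filled points for genes at an adjusted p below 0.05. Called genes lie to the right in the exhaustion, lymphoid and HMG-box lists, and the HBO1, phosphatase and CREB lists stay near 0.

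Markers of other cells that an enrichment without a sort could hold were summed per library. Calls over all tested genes were 9.16% higher and 4.89% lower. CD8 T cell markers fell in 5 of 7 genes, with sums of 5933 to 6326 CPM in WT and 4876 to 4998 CPM in ATF4OE. Sums were higher without overlap for gamma-delta T cells (7 of 7 genes higher; 30.0 to 42.1 against 109 to 141 CPM), NK cells and ILCs (3 of 8; 27.9 to 107 against 145 to 395 CPM) and CD4 T cells (3 of 5 higher and 1 lower; 22.6 to 34.0 against 40.8 to 54.9 CPM). The same held for B cells (5 of 8; 34.5 to 69.0 against 101 to 280 CPM), myeloid cells (5 of 7; 11.5 to 64.2 against 99.3 to 240 CPM), erythroid cells (8 of 10; 7.67 to 12.3 against 66.9 to 257 CPM) and platelets (3 of 5; 3.54 to 4.59 against 8.51 to 15.9 CPM). Double-positive thymocyte markers had 1 of 3 tested genes higher and 1 lower (44.7 to 56.3 against 58.1 to 64.6 CPM). Stromal and endothelial markers had 3 of 7 higher and 1 lower (137 to 155 against 116 to 129 CPM). Most of that last sum was the lower gene, Pecam1, with means of 147 CPM in WT and 115 CPM in ATF4OE. Every other tested gene of that list had a log2 fold change above 0 (0.90 to 3.96).

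Neurons and epithelium, the known sites of Tox3, were looked at by their own markers. The neuron and glia markers summed to 3.79 to 4.83 CPM in WT and 16.6 to 20.1 CPM in ATF4OE, of which the tubulin gene Tubb3 made up 2.75 to 4.02 and 15.4 to 18.6 CPM. The defining neuronal genes Snap25 and Syt1 were at 0 in all 8 libraries. The neuronal gene Rbfox3 and the astrocyte gene Gfap were at 0 in WT and each had counts in 1 ATF4OE library, with 5 counts for Rbfox3 in replicate 3 and 10 for Gfap in replicate 2. The epithelial markers summed to 3.56 to 5.99 and 6.62 to 7.35 CPM, and 1 of 4 tested genes was higher, the keratin gene Krt18 (log2 3.02, edgeR adjusted p = 0.0211). Its call was lost without WT replicate 2, ATF4OE replicate 3 or ATF4OE replicate 4 (edgeR adjusted p up to 0.0801). Krt18 ran from 0.0247 to 0.217 CPM in WT and from 0.569 to 1.598 CPM in ATF4OE, highest in set 2. Krt8, its usual partner, was at 0 in WT and had 6 counts in ATF4OE replicate 1 alone, and the keratin genes Krt5 and Krt14 were at 0 in all 8 libraries. The part of these other cells in the Tox3, Tox2 and list values was not tested. Among ATF4OE libraries, Tox3, the NK cell sum (395 CPM) and the B cell sum (280.2 CPM) were each highest in replicate 1. Tox3 was lowest in replicate 2 (1.24 CPM), with NK and B cell sums of 342 and 197 CPM. In replicate 3 Tox3 was at 1.56 CPM, with sums of 151 and 101 CPM, and in replicate 4 at 1.26 CPM, with sums of 145 and 102 CPM. The gamma-delta T cell sums were 109, 129, 128 and 141 CPM in ATF4OE replicates 1 to 4. WT replicates 1 to 4 had NK cell sums of 27.9, 29.3, 102 and 107 CPM and no Tox3 count. Slc1a5, Cdk15, Aldh1l2 and Nt5e were highest in ATF4OE replicate 1, and Cth in replicate 3. These genes were named for their likeness to Tox3 over the same libraries, so nothing is read from a shared peak. The erythroid and myeloid sums were highest in set 2.

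**Figure D5:**
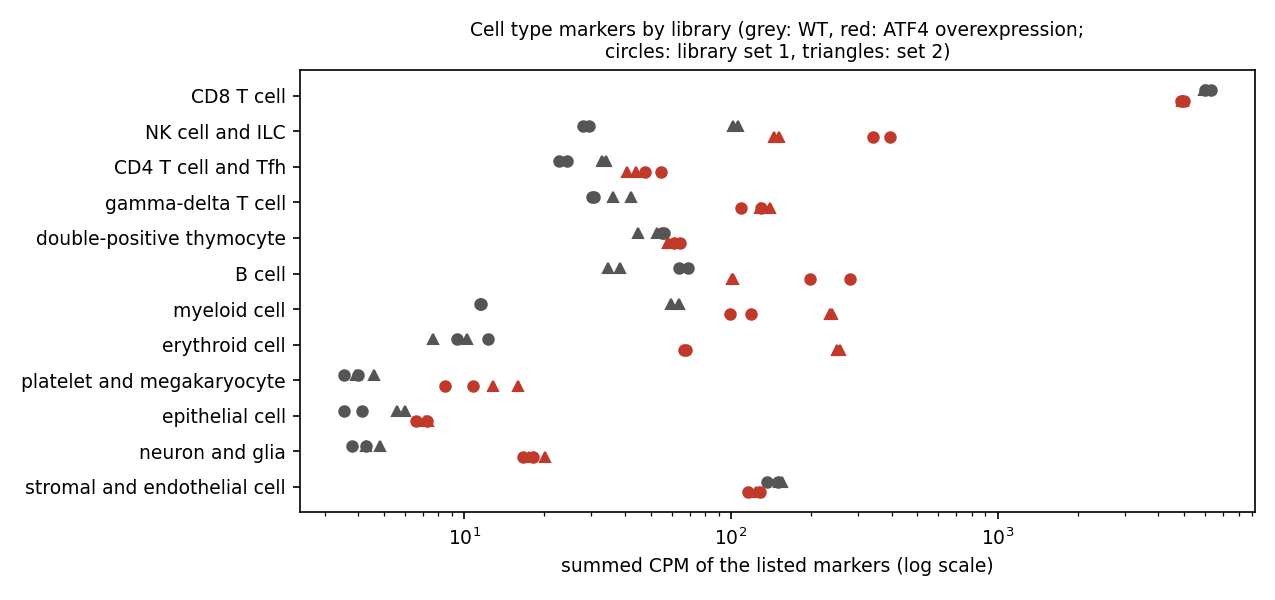
Summed CPM (log axis) of each marker list in every library, grey for WT and red for ATF4OE, with circles for set 1 and triangles for set 2. CD8 markers lie between 4876 and 6326 CPM in all libraries, and most lists of other cell types are higher in ATF4OE.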

How the data were processed

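RNA-seq was measured in 8 libraries, 4 per genotype, grouped by the sample titles. The authors deposited estimated counts, 1 table with a row per gene symbol, made with Salmon on GRCm38.p6 per the submitters' processing notes. Salmon divides reads shared between transcripts by a model, so values of overlapping genes can trade reads. Annotation, strand setting and trimming were not given in the sources used here. Of 55291 genes, 30015 had no count; 0 columns were unused.

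Estimated counts were rounded and tested in edgeR 4.0.16 by quasi-likelihood (R 4.3.3; TMM, filterByExpr, robust), with group as the only term and Benjamini-Hochberg adjustment over 16630 tested genes. Calls used an adjusted p below 0.05. CPM was computed from the deposited counts and TMM-scaled totals. Likeness used log2 CPM with a prior count of 2, among genes averaging 1 CPM or more with no provisional symbol. Scripts were tested on simulated data.

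The members and lists were chosen with earlier results of these data known. Named were the members, Atf4, the 4 genes per list with the lowest p-values, listed genes needed to describe the members, and the 5 genes most like each member. Some genes that this rule takes are not reported here. The called neighbours of Tox2, the nearest of Tox3, and the other list genes were named after their values were seen. Of 183 list entries all matched, 3 through RefSeq synonyms; 53292 symbols matched GENCODE M21. Coding sequences were aligned with mafft 7.526.

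Groups share replicate numbers. Deviations from the group means correlated between same-numbered libraries for every number (r = 0.199 to 0.289). These means span both sets, so libraries of the same set tend to correlate here whatever their number. The check therefore cannot show pairing by number, and the labels give none. The replicate block is thus an alternative fit only. The best match was ATF4OE replicate 1 for WT replicates 1 and 2, and ATF4OE replicate 3 for WT replicates 3 and 4. The matches thus follow the set and do not single out the number. Between replicates, chi-square per degree of freedom was at least 38.5, so no library was a copy of another. Alternatives were other scalings (RLE, upper quartile), filters, DESeq2 1.42.0, limma-voom 3.58.1, the replicate or set block, each set alone, each library left out, and, chosen after seeing the data, leaving out the 4 libraries that lack low counts. Counts from amplified libraries are not independent molecules.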

Additional observations from a re-analysis of the deposited data

Results flagged for a closer look

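Among 145 groups of 4 libraries from 75 named genes, 6 had 1 library far from the other 3 by Dixon's test (critical value 0.829). Chance flags about 1 in 20 groups if the 4 values are independent and normal. Libraries that fall in sets need not meet this, so the flags only mark values to look at. In WT, Kat7 was highest in replicate 1 (107.8 CPM, the others 99.3 to 100.4), and Hnf4a was above 0 only in replicate 3 (0.0750 CPM). A gene above 0 in only 1 library of a group is always flagged. Fmnl3 (34.9 CPM, the others 44.4 to 45.6) and Fbxl18 (9.90 CPM, the others 13.2 to 13.6), both named for their likeness to Tox2, were lowest in WT replicate 4, as was Sox12 (1.38 CPM, the others 2.31 to 2.36); this is the WT library in which Tox2 had no count. In ATF4OE, Kcns1 was highest in replicate 3 (0.939 CPM, the others 0.251 to 0.302).

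The effect of genotype differed between the library sets for 3 named genes by the edgeR interaction test. Cd244a had an effect in set 2 that was lower by a log2 of -2.87 than in set 1 (adjusted p = 0.00152), with 1.12 and 1.18 CPM in WT and 22.3 and 15.8 CPM in ATF4OE of set 1, and 4.21 and 3.79 against 9.76 and 8.46 CPM in set 2. Hmgb2 had a larger effect in set 2, by 0.75 (adjusted p = 0.00579), with 167 and 169 CPM in ATF4OE of set 1 and 248 and 259 CPM in set 2. Hmgb3 did so by 1.36 (adjusted p = 0.0126), with 20.7 and 21.3 CPM in ATF4OE of set 1 and 50.5 and 56.9 CPM in set 2.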

How the results depend on the processing

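The members' values are a description, since they were chosen on this contrast. The fitted log2 fold change of Tox3, which depends on the prior count, ran from 8.44 to 10.7. The log2 fold change of Tox ran from -0.10 (reversed, within set 2) to 0.38, of Tox4 from 0.03 to 0.16 and of Tox2, which the stricter filter removes, from 1.55 to 3.28. The replicate block gave 2279 genes higher and 2237 lower, the set block 2327 and 1927, within set 1 1161 and 528, within set 2 2434 and 1365, and the 4 other libraries alone, with those poor in low counts left out, 1250 and 333, against 1524 and 813. The share of calls that were higher was 65.2%, with the replicate block 50.5%, the set block 54.7% and with those 4 left out 79.0%. Leaving out 1 library gave 1089 to 1431 higher and 518 to 677 lower, the lowest of both without ATF4OE replicate 4. The replicate block changed the calls and list counts given with the results.

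Without a low-count filter the Tox interaction (-0.46) and set difference (0.22) passed. Leaving out 1 library moved the set difference of Tox2 between -0.75 and 0.55 and of Tox3 between -0.91 and 0.17. With the longest transcript as length, Tox was at 29.1 in WT and 36.5 in ATF4OE. Other genes near 0 reversed: Kat7 (0.017), Lsm1 (0.013) and Eomes (0.0087) with upper-quartile scaling; Ppp1r10 (-0.0998), Lsm1 (0.18) and Eomes (0.23) within set 1; Kat7 (0.032), Nfatc2 (-0.069), Rbl2 (-0.0020), Crtc1 (-0.035), Dnajc14 (-0.064), Gak (-0.062) and Gdf11 (-0.084) within set 2. Without the 4 libraries, Atf4 (-0.11), Nr4a1 (-0.68), Nfatc1 (-0.0030), Nfatc2 (-0.22), Crtc1 (-0.20), Kat7 (0.022), Atf1 (0.0077), Ppp1ca (0.012) and Lsm1 (0.011) reversed; that setting keeps 1 WT library and 0 ATF4OE libraries of set 1. Leaving out 1 library gave Kat7 -0.057 to 0.027, Nfatc2 -0.090 to 0.16, Crtc1 -0.017 to 0.17, Ppp1r10 -0.043 to 0.081, Dnajc14 -0.035 to 0.075, Gak -0.015 to 0.083, Lsm1 -0.099 to 0.072 and Eomes -0.12 to 0.063. The cause of these changes was not tested. Of 1345 values of single genes, 1174 kept direction and side of the threshold, and of 266 list counts 213 stayed within 1.5 times.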
